A study of Mus musculus with 6 samples.

Results

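The genes described here make the machinery of DNA replication and the nucleotides it uses. They are 41 mouse genes chosen by symbol, from the proteins that mark origins to the enzymes that make deoxynucleotides, and all 41 were found by Entrez number among the 15295 genes of the deposited count table. The data are bulk RNA-seq libraries of 6 tumours of NA13, a line of mouse bladder cancer cells that the series describes as high in DDR2, with C57BL/6 as the labelled strain. In 3 tumours the cells had received shDdr2, an shRNA against the collagen receptor gene Ddr2, and in 3 a scrambled shRNA (control). All 6 tumours were from the IgG arm, so both groups share that treatment. The labels call the tumours xenografts and give no age, host sex or clone, and whether each tumour of a group grew in its own animal is not said. The p-values therefore rest on a spread between libraries that may in part be technical. Each library mixes tumour and host cells, and in such bulk samples a lower share of dividing cells and less RNA per cell cannot be told apart.

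A cell copies its genome once per division. The origin recognition complex marks start sites, and CDC6 and CDT1 load the ring of 6 MCM proteins there in G1 phase. CDC45 and the GINS complex then turn that ring into a moving helicase. DNA polymerase alpha with primase lays down primers, polymerases delta and epsilon extend them on the sliding clamp PCNA, and FEN1 and ligase I join the pieces of the lagging strand. Ribonucleotide reductase, thymidylate synthase and thymidine kinase supply the deoxynucleotides. Many of these genes are transcribed together at the G1/S boundary under E2F transcription factors, and their RNA is widely used to mark proliferating cells in tumours.

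The targeted gene was measured first. Ddr2 (Entrez 18214, chromosome 1, 169972307 to 170110762, minus strand, GRCm38) was at 4.84, 18.95 and 28.6 CPM in shDdr2 1 to 3, against 6.42, 16.7 and 20.5 CPM in control 1 to 3, where CPM is counts scaled to TMM-adjusted library totals. Its log2 fold change was 0.27 (95% interval -1.27 to 1.81), -0.082 without control 1 and -0.28 without shDdr2 3. Left out singly, shDdr2 1, shDdr2 2, control 2 and control 3 gave 0.71, 0.21, 0.38 and 0.60. The bulk level of Ddr2 thus did not show a reduction, and the interval includes changes in either direction. Tumour and host cells were not separated, so the level in the tumour cells alone was not tested. Every direction below is between libraries as labelled. Library totals ranged from 15560571 to 19522985 counts. A pair of libraries stood apart from the rest. On the first principal component, which held 50.1% of the variance, shDdr2 1 was at -85.2 and the other 5 libraries lay between -16.3 and 45.7. On the second (22.2%), control 1 was at 55.7 and the others between -34.3 (shDdr2 2) and 6.75 (shDdr2 3). Marker lists of other cells differed between libraries. The 12 fibroblast and collagen genes, all in the table, summed to 1865, 5251 and 13215 CPM in shDdr2 1 to 3, against 3288, 5831 and 7028 CPM in control 1 to 3. Ddr2 was likewise lowest in shDdr2 1 and highest in shDdr2 3, and a link was not tested. The 12 urothelial and epithelial genes summed to 11445 to 12655 CPM in tumours labelled shDdr2 and 11554 to 13435 CPM in control tumours. Yet 10 of these 12 had a log2 fold change below 0 (median -0.69, -0.22 without control 1), 3 of them with an unadjusted edgeR p under 0.05. Of the 12, edgeR called 0 and DESeq2 called 2 as lower in shDdr2. The sum of the 10 keratinocyte genes was 3818 CPM in shDdr2 1 and at most 1098 CPM in the other 5 libraries, that of the 4 erythrocyte genes tested of 5 was 596 CPM in control 1 and at most 62.6 CPM elsewhere, and that of the 12 skeletal muscle genes was 479 to 3679 CPM in tumours labelled shDdr2 and 11.5 to 131 CPM in control tumours. The table lists no gene at 0. The part of these cells in the values below was not tested.

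Replication RNAs were at slightly higher fitted levels in the tumours labelled shDdr2, and no gene among them passed the test. Of the 41 genes, 39 had a log2 fold change above 0, where 57.1% of all 14498 genes tested did, and the median over the 41 was 0.30 against 0.040 over all genes. Single genes ran from -0.071 for Pola2 to 0.56 for Gins2. No member was called by the quasi-likelihood test of edgeR at an adjusted p under 0.05: 0 of 41 higher and 0 lower, against a background of 0% in either direction (0 of 14498 genes). At an unadjusted p under 0.05 there were 0 members, where 0.993% of all genes were higher and 0.448% lower. DESeq2 called 0 members too, with a background of 0.235% of genes higher and 0.0414% lower, and 1 member, Cdc6, had an unadjusted p under 0.05 there. The share of all genes at that unadjusted DESeq2 threshold is not given here. With limma, run with voom weights or on the authors' log2 values, 0 members were called and 0 had an unadjusted p under 0.05. The 95% interval of the log2 fold change included 0 in all 41, reaching 0.456 to 1.15 to either side. The groups did not overlap in 2 genes, Cdc6 and Mcm10, both higher in shDdr2, which is 4.88% of the members against 2.21% of all genes in that direction and 2.11% in the other. The unadjusted edgeR p ran from 0.0644 for Cdc6 to 0.976, and the adjusted p was 1.00 in each.

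The mean of the 41 genes was 5.62 ± 0.340 log2 CPM in tumours labelled shDdr2 and 5.38 ± 0.221 log2 CPM in control tumours (SD, n = 3 each), a difference of 0.23 log2 units. Summed over the 41 genes the level was 3375, 2819.9 and 2182 CPM in shDdr2 1 to 3, against 1911, 2565 and 2532 CPM in control 1 to 3. The highest and the lowest library by this sum both carry the number 1, shDdr2 1 and control 1, and shDdr2 3 lay below control 2 and control 3. All 41 genes were higher in shDdr2 1 than in control 1, 26 were higher in shDdr2 2 than in control 2, and 4 were higher in shDdr2 3 than in control 3. Without shDdr2 1 the number with a fold change above 0 was 25 of 41 and the median 0.091, and without control 1 it was 31 of 41 and the median 0.22. Without both, in 2 tumours against 2, it was 19 of 41 (46.3%, against 49.7% of 14582 genes) and the median turned to -0.088. For the fits without only shDdr2 1 or only control 1, the share of all genes above 0 is not given here.

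**Figure D1:**
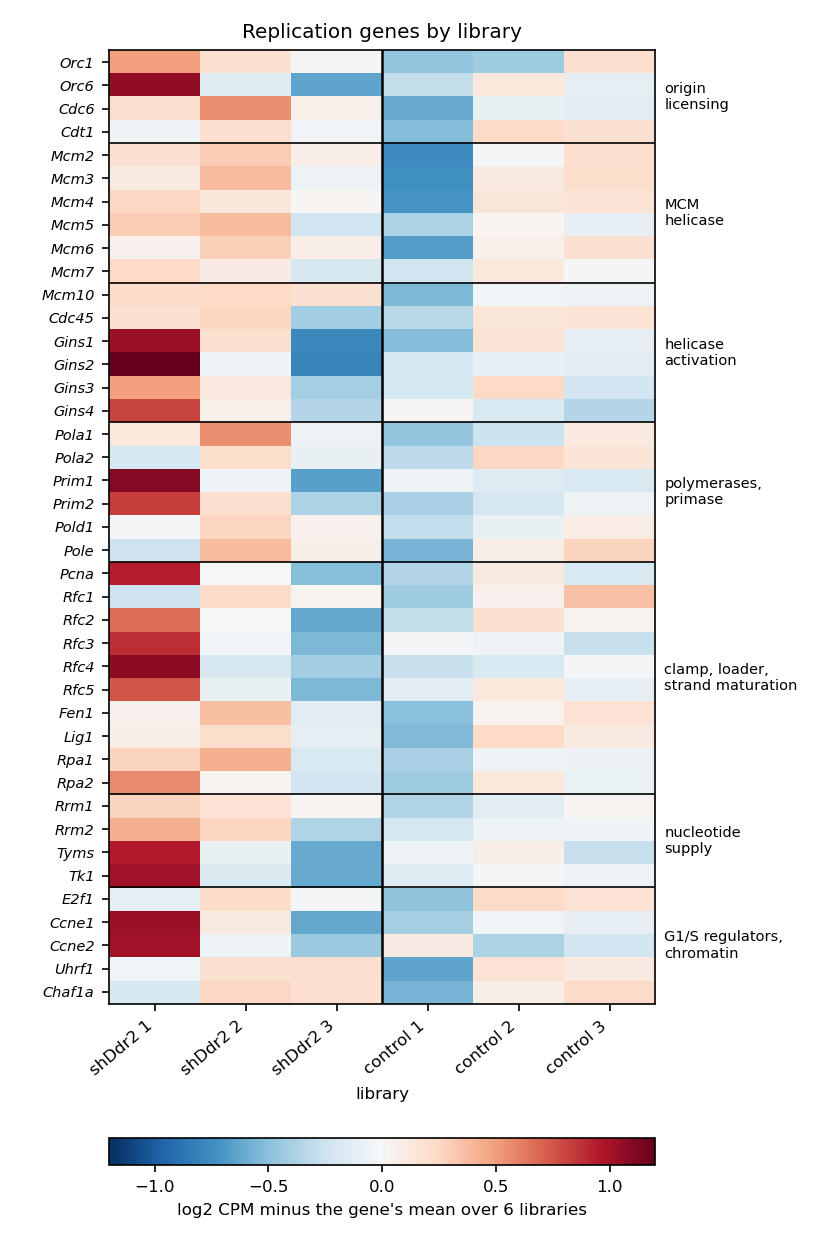
Heat map of 41 replication genes (rows, grouped by role) in 6 libraries (columns, those labelled shDdr2 at the left); colour is log2 CPM minus the gene's mean over the libraries. The library shDdr2 1 holds the highest value of 22 genes and control 1 the lowest of 24, while shDdr2 3 holds the lowest of 16.

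**Figure D2:**
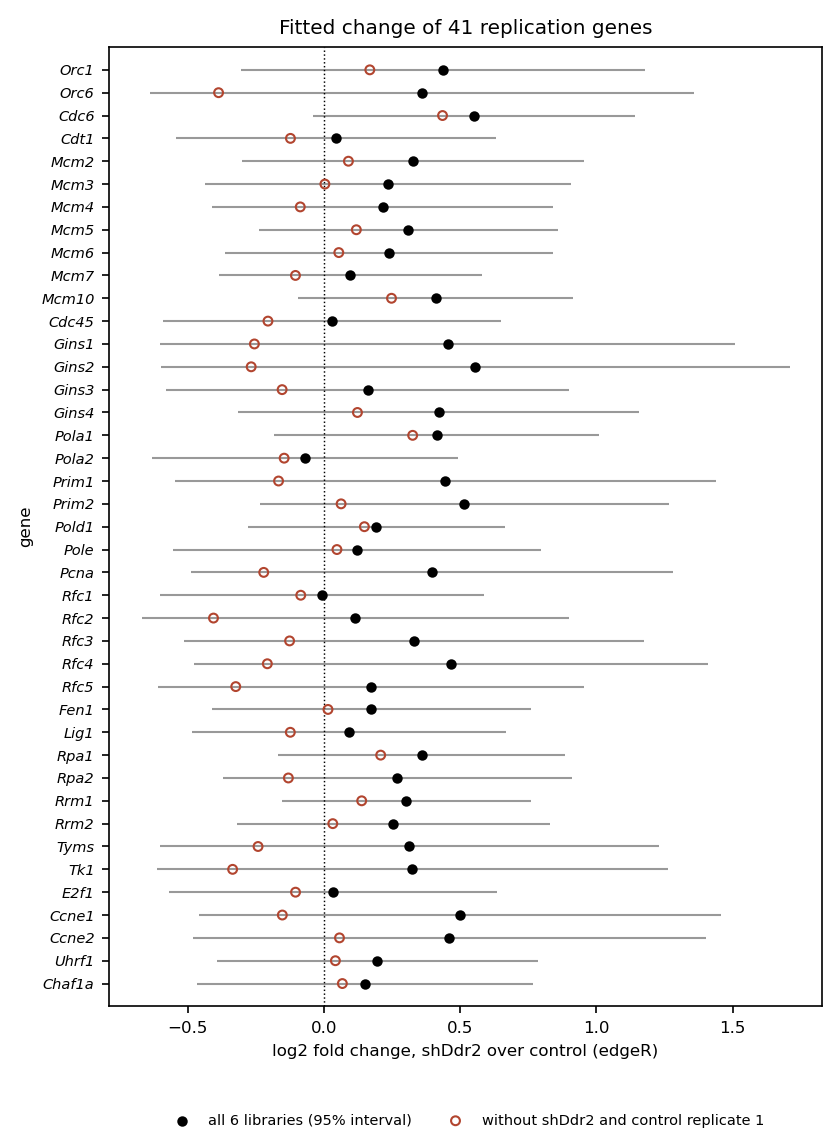
Fitted log2 fold change of each gene, shDdr2 over control (filled points, with 95% intervals from edgeR), and the same fitted without replicate 1 of both groups (open points). All 41 intervals include 0, and 39 filled but 19 open points lie above 0.

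Promoters of these genes were read from the RefSeq table of GRCm38.p6, which holds 33 of the 41, in 38 windows of 300 bases (250 before and 50 after the start). The 8 with no entry there are Mcm4, Gins1, Gins2, Gins4, Prim2, Pole, Rfc2 and Ccne2. They were searched on both strands for words that E2F factors are known to bind (the word TTGGCGC, the word TTCCCGC, the word TTCGCGC and the word TTGCCGC, with overlapping matches counted once), for the CCAAT box, for the GC box GGGCGG, and for the CHR words, spelt TTTGAA or with a C in the middle, TTCGAA, an element known from genes of mitosis. An E2F word stood in 24 of the 38 windows (63.2%), against 9.57% of all 32851 windows and 3 of 26 windows (11.5%) of a list of 30 mitosis genes. CHR words showed a reverse split, with 6 of 38 windows (15.8%) for replication genes, 20 of 26 (76.9%) for mitosis genes and 19.2% of all windows. CCAAT was in 60.5% and the GC box in 73.7% of the replication windows, against 76.9% and 84.6% of the mitosis windows and 37.4% and 35.7% of all windows. No E2F match overlapped a GC box in the 38 windows. The 250 bases before the start are shown for the 4 genes with at least 2 E2F matches there, with the matches in capitals, and for Pcna, the most abundant of the 41 per exonic length, which has none in this window.
Pola1, chrX:93632156-93632405, minus strand: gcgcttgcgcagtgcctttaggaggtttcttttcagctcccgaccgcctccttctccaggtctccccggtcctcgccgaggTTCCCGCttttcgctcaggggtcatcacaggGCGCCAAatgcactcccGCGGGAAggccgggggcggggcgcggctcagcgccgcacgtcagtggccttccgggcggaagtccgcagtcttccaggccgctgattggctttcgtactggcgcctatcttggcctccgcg
Mcm6, chr1:128359706-128359955, minus strand: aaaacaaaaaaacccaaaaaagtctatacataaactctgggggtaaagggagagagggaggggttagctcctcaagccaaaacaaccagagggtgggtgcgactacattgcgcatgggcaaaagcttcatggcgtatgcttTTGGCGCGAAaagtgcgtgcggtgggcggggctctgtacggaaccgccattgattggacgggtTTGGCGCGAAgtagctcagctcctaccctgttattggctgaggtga
Mcm5, chr8:75109259-75109508, plus strand: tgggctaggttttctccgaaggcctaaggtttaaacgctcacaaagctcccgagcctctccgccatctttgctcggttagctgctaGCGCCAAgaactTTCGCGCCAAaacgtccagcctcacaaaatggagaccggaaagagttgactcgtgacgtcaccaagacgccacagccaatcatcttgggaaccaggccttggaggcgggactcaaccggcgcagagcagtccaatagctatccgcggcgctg
Chaf1a, chr17:56040166-56040415, plus strand: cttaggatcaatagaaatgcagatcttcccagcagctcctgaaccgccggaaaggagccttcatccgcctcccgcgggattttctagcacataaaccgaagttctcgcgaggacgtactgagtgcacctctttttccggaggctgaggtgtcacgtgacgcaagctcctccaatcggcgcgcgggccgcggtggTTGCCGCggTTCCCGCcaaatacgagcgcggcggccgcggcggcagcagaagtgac
Pcna, chr2:132253181-132253430, minus strand: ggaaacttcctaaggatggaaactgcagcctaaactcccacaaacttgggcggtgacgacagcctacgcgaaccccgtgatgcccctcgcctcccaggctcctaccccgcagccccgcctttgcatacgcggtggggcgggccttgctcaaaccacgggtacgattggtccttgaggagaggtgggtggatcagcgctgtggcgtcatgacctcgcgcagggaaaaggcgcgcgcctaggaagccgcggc
Both Mcm6 matches and the longer Mcm5 match are runs in which 2 words on opposite strands overlap. A match is a description of letters, and binding was not measured in these tumours.

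**Figure D3:**
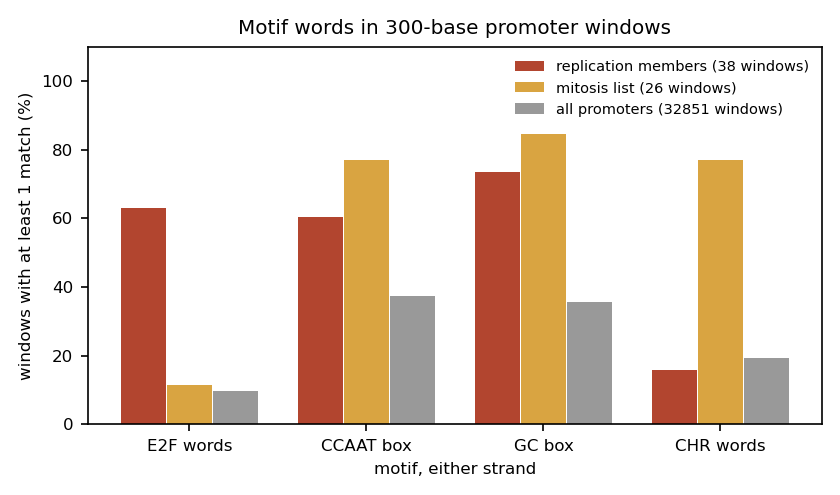
Share of 300-base promoter windows with at least 1 match to each motif on either strand, for the replication genes (38 windows), a mitosis list (26) and all promoters (32851). E2F words are in 63.2% of replication windows and 11.5% of mitosis windows, and CHR words in 15.8% and 76.9%.

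Origin licensing was represented by Orc1, Orc6, Cdc6 and Cdt1, all 4 with a fold change above 0 and a median of 0.40. Cdc6 (Entrez 23834, chromosome 11, 98907801 to 98923940, plus strand), which loads the MCM ring, was at 21.8, 27.96 and 19.8 CPM in shDdr2 1 to 3, against 12.5, 17.9 and 17.2 CPM in control 1 to 3. The groups did not overlap, and Cdc6 was higher in all 3 same-numbered pairs. It averaged 23.2 ± 4.25 CPM in tumours labelled shDdr2 and 15.8 ± 2.95 CPM in control tumours (SD, n = 3 each; log2 fold change 0.55, SE 0.25, edgeR adjusted p = 1.00), with the smallest unadjusted p of the 41 genes. Its adjusted p was 1.00 with edgeR and ran from 0.706 to 1.00 over 20 alternatives, and its fold change stayed between 0.39 and 0.72 in the fits that left out libraries. Orc6 (Entrez 56452, chromosome 8, 85299632 to 85308278, plus strand), the smallest subunit of the origin recognition complex, was at 88.9, 38.4 and 27.5 CPM in shDdr2 1 to 3, against 34.8, 46.4 and 39.2 CPM in control 1 to 3. The library shDdr2 1 was the highest and shDdr2 3 the lowest of all 6, and the log2 fold change of 0.36 turned to -0.28 without shDdr2 1. Orc1, the ATPase subunit, and Cdt1, the partner of CDC6 in loading, had fold changes of 0.44 and 0.044, that of Cdt1 being -0.15 without control 1 and -0.045 without shDdr2 2. The median of the 4 was 0.19 without shDdr2 1.

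The 6 subunits of the MCM ring, Mcm2 to Mcm7, shared a low library: control 1 was the lowest of the 6 for every subunit. Mcm2 (Entrez 17216, chromosome 6, 88883474 to 88898780, minus strand) was at 89.4, 97.3 and 83.1 CPM in shDdr2 1 to 3, against 46.8, 78.1 and 90.3 CPM in control 1 to 3. Mcm3 (Entrez 17215, chromosome 1, 20802968 to 20820312, minus strand) was at 112, 135 and 99.4 CPM in shDdr2 1 to 3, against 62.2, 112 and 120.3 CPM in control 1 to 3. Mcm4 (Entrez 17217, chromosome 16, 15623897 to 15637400, minus strand) was at 117, 108 and 99.8 CPM in shDdr2 1 to 3, against 60.2, 109 and 111 CPM in control 1 to 3. In these 3 subunits the ratio of control 1 to the mean of the other 5 libraries was 0.534, 0.538 and 0.554. Mcm5 (Entrez 17218, chromosome 8, 75109569 to 75128439, plus strand) was at 118, 124 and 80.9 CPM in shDdr2 1 to 3, against 73.6, 98.1 and 89.5 CPM in control 1 to 3. Mcm6 (Entrez 17219, chromosome 1, 128331590 to 128359664, minus strand) was at 122, 144 and 124 CPM in shDdr2 1 to 3, against 74.4, 123 and 133 CPM in control 1 to 3. Mcm7 (Entrez 17220, chromosome 5, 138164583 to 138172422, minus strand) was at 148, 135 and 109.8 CPM in shDdr2 1 to 3, against 106, 138 and 123 CPM in control 1 to 3. The groups overlapped in all 6.

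The log2 fold changes of the 6 subunits were between 0.10 (Mcm7) and 0.33 (Mcm2), with unadjusted edgeR p from 0.226 to 0.654. Their median was 0.24, 0.25 without shDdr2 1 and 0.026 without control 1. Without control 1 the fold changes of Mcm2, Mcm3 and Mcm6 were 0.11, 0.0037 and 0.033. Mcm4 turned to -0.0057 without control 1 and Mcm7 to -0.0016 without shDdr2 1. Since the proteins assemble into a common ring, their RNA levels were also set side by side per exonic length. Over the 6 libraries they ran from 23.98 CPM per kb for Mcm2 to 42.8 CPM per kb for Mcm7, a ratio of 1.78, and the other 4 subunits lay between 27.4 and 35.2 CPM per kb. Mcm7 shares 321 exonic bases with Ap4m1 on the opposite strand, and since the strand setting of the counting is not given in the sources used here, its level is uncertain.

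**Figure D4:**
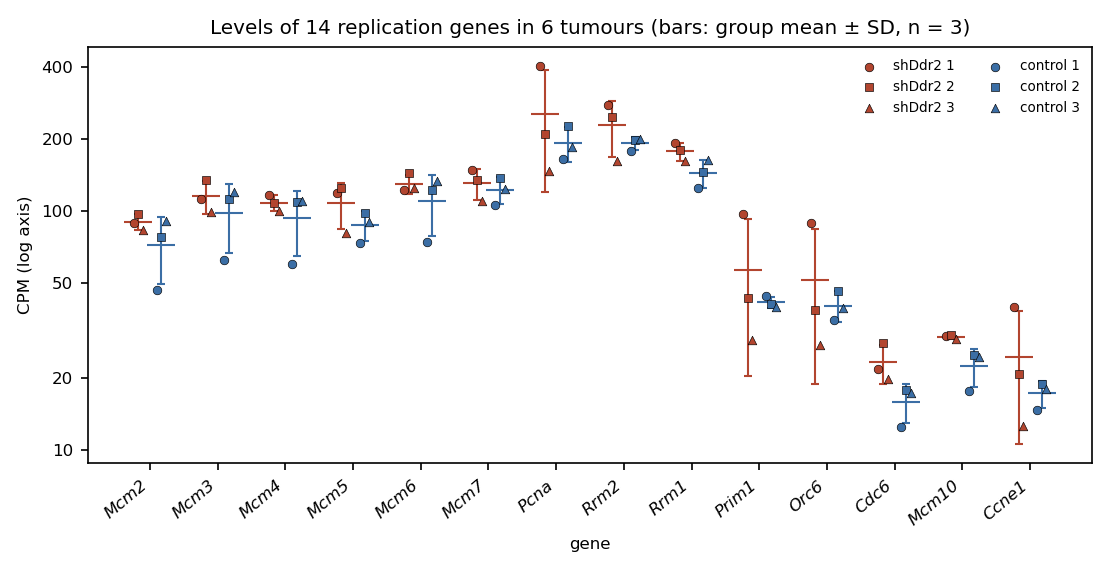
CPM (log axis) of 14 replication genes in each library; colours are the groups, marker shapes the replicate numbers, and bars the group mean ± SD (n = 3). Control 1 is the lowest point of all 6 genes from Mcm2 to Mcm7, and shDdr2 1 is the highest point of Mcm4, Mcm7, Pcna, Rrm2, Rrm1, Prim1, Orc6 and Ccne1.

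Helicase activation covered Mcm10, Cdc45 and the 4 GINS subunits, all 6 with a fold change above 0 and a median of 0.41. Mcm10 (Entrez 70024, chromosome 2, 4989714 to 5012791, minus strand), which helps the helicase to start, was at 29.97, 30.2 and 28.99 CPM in shDdr2 1 to 3, against 17.6, 24.97 and 24.5 CPM in control 1 to 3. The 3 libraries labelled shDdr2 were nearly equal and all above the controls, at 29.7 ± 0.626 CPM in tumours labelled shDdr2 and 22.4 ± 4.11 CPM in control tumours (SD, n = 3 each; log2 fold change 0.41, SE 0.22, edgeR adjusted p = 1.00). Its difference was 0.28 without control 1 and 0.25 without number 1 of both groups. Gins4 (Entrez 109145, chromosome 8, 23226616 to 23237659, minus strand), also known as SLD5, was at 82.5, 49.01 and 36.97 CPM in shDdr2 1 to 3, against 47.4, 41.5 and 36.96 CPM in control 1 to 3. The highest library was shDdr2 1, with a fold change of 0.42 that was 0.037 without it. Gins2 encodes the GINS subunit PSF2 and had the widest spread within the shDdr2 group among the 41, relative to its mean. It was at 50.9, 20.2 and 11.998 CPM in shDdr2 1 to 3, against 17.96, 19.5 and 18.98 CPM in control 1 to 3, and 2758 of its 3900 exonic bases are shared with Gse1 on the opposite strand, so its level is uncertain. The fold changes of Gins1, Gins2 and Gins3 were 0.45, 0.56 and 0.16, and -0.079, -0.22 and -0.069 without shDdr2 1. Cdc45, the third component of the active helicase, differed by 0.030, which turned to -0.047, -0.094 and -0.10 without shDdr2 1, shDdr2 2 and control 1. The median of the 6 was -0.058 without shDdr2 1.

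Among polymerases and primase, 5 of 6 genes had a fold change above 0 and the median was 0.30. Without shDdr2 2 it was 4 of 6 and 0.16. Pola1 (Entrez 18968, chromosome X, 93304767 to 93632155, minus strand), the catalytic subunit of polymerase alpha and the gene with most E2F matches in its promoter, was at 42.3, 57.001 and 37.1 CPM in shDdr2 1 to 3, against 27.9, 32.4 and 42.2 CPM in control 1 to 3. The highest library was shDdr2 2, and control 3 lay within the shDdr2 range (log2 fold change 0.41, SE 0.26, edgeR adjusted p = 1.00). Its fold change was 0.22 without shDdr2 2. Prim1 (Entrez 19075, chromosome 10, 128015168 to 128030037, plus strand), the catalytic primase subunit, was at 97.2, 43.3 and 28.8 CPM in shDdr2 1 to 3, against 43.8, 40.6 and 39.7 CPM in control 1 to 3. The 3 controls lay within a few CPM of each other, while the shDdr2 group held both the highest and the lowest library, and the fold change of 0.45 turned to -0.20 without shDdr2 1. Prim2, the large primase subunit, was also highest in shDdr2 1, at 49.03 CPM, with 31.7 and 21.2 CPM in shDdr2 2 and 3 and 20.98 to 26.4 CPM in control tumours. The polymerase delta and epsilon catalytic genes Pold1 and Pole differed by 0.19 and 0.12, that of Pole being -0.076 without control 1 and -0.051 without shDdr2 2. Pola2, the second subunit of polymerase alpha, was the member with the lowest fold change, -0.071 (95% interval -0.63 to 0.49), which was 0.018 without shDdr2 1 and 0.038 without control 2.

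The clamp, its loader and the strand-maturation factors made up 10 genes, 9 of them with a fold change above 0 and a median of 0.22, which was -0.046 without shDdr2 1. Pcna (Entrez 18538, chromosome 2, 132249162 to 132253314, minus strand), the sliding clamp, had the highest level per exonic length of the 41, 147 CPM per kb over the 6 libraries. It was at 405, 209 and 147 CPM in shDdr2 1 to 3, against 165, 228 and 185 CPM in control 1 to 3. The library shDdr2 1 stood at 2.16-fold the mean of the other 5, and shDdr2 3 was the lowest of all. The fold change of 0.40 (95% interval -0.49 to 1.28) turned to -0.11 without shDdr2 1. GENCODE lists 2 pseudogenes of Pcna, and how the counting treated reads shared with them is not given, so its level is uncertain.

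The clamp loader is a complex of RFC1 to RFC5, and its RNAs differed in where they were highest. The small subunit genes Rfc2, Rfc3, Rfc4 and Rfc5 were all highest in shDdr2 1, at 1.71-fold (Rfc2) to 2.43-fold (Rfc4) the mean of the other 5 libraries. Rfc1, the large subunit, was at 74.4, 103 and 90.01 CPM in shDdr2 1 to 3, against 65.5, 91.4 and 113 CPM in control 1 to 3. There shDdr2 1 was below every library but control 1, at 0.803 of the mean of the other 5. The fold change was 0.47 for Rfc4 and between 0.11 and 0.33 for Rfc2, Rfc3 and Rfc5, and all 4 were below 0 without shDdr2 1, from -0.27 to -0.14. That of Rfc1 was -0.0079, and 0.11, 0.0032 and 0.19 without shDdr2 1, control 2 and control 3. Rpa1 (Entrez 68275, chromosome 11, 75298166 to 75348324, minus strand), the large subunit of the single-strand binding protein RPA, was at 94.5, 105 and 68.9 CPM in shDdr2 1 to 3, against 59.98, 75.3 and 74.4 CPM in control 1 to 3. The controls lay within the shDdr2 range apart from control 1 (log2 fold change 0.36, SE 0.23, edgeR adjusted p = 1.00). Without shDdr2 2 its fold change was 0.22. Its partner Rpa2 differed by 0.27, and by 0.018 without shDdr2 1. The flap nuclease gene Fen1 differed by 0.17, and by 0.0081 without control 1 and 0.025 without shDdr2 2. The ligase gene Lig1 differed by 0.090, which turned to -0.10 without control 1. Fen1 shares 1909 of its 2422 exonic bases with Gm10143 on the opposite strand. Exonic bases were shared with another gene in 15 members, Fen1, Gins2 and Mcm7 among them. Chaf1a shares 2692 of 5535 with Ubxn6, and Rfc2 shares 952 of 4995 with Lat2. Ccne2 shares 609 of 3200 with Ints8, and Rfc5 shares 499 of 3237 with Wsb2. The other overlaps cover at most 360 bases each. How the counting treated reads from shared bases is not given, so the levels of all 15 are uncertain.

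The 4 genes of nucleotide supply all had a fold change above 0, in the narrow range of 0.25 to 0.32, with a median of 0.31 that was -0.075 without shDdr2 1. Rrm2 (Entrez 20135, chromosome 12, 24708241 to 24714146, plus strand), the small subunit of ribonucleotide reductase, whose level follows S phase, was at 278, 248 and 161 CPM in shDdr2 1 to 3, against 179, 198 and 199 CPM in control 1 to 3. It was second to Pcna per exonic length, with 95.9 CPM per kb over the 6 libraries. The shDdr2 group again held the highest and the lowest library (log2 fold change 0.25, SE 0.25, edgeR adjusted p = 1.00), and the fold change was 0.094 without shDdr2 1 and 0.032 without number 1 of both groups. Rrm1 (Entrez 20133, chromosome 7, 102441695 to 102469771, plus strand), the large subunit, was at 192, 179.8 and 161 CPM in shDdr2 1 to 3, against 124, 145 and 163 CPM in control 1 to 3. Its groups overlapped through shDdr2 3 and control 3, which lay within 2 CPM of each other (log2 fold change 0.30, SE 0.20, edgeR adjusted p = 1.00). The thymidylate genes were the most uneven of the 4. Tk1, thymidine kinase, was at 119.7, 53.3 and 39.2 CPM in shDdr2 1 to 3, against 53.4, 58.7 and 57.3 CPM in control 1 to 3. Tyms, thymidylate synthase, was at 82.03, 39.9 and 27.9 CPM in shDdr2 1 to 3, against 40.9, 44.6 and 35.01 CPM in control 1 to 3. In both, the 3 controls were close together and shDdr2 1 stood far above them, and the fold changes of 0.32 and 0.31 turned to -0.29 and -0.24 without shDdr2 1. Tyms has 1 listed pseudogene.

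The G1/S regulators and chromatin factors, 5 genes, all had a fold change above 0, with a median of 0.20, which was -0.0056 without control 1. Ccne1 (Entrez 12447, chromosome 7, 38097984 to 38107534, minus strand), cyclin E1, which drives entry into S phase, was at 39.6, 20.9 and 12.6 CPM in shDdr2 1 to 3, against 14.7, 18.9 and 18.04 CPM in control 1 to 3. Here too shDdr2 1 was the highest and shDdr2 3 the lowest library (log2 fold change 0.50, SE 0.41, edgeR adjusted p = 1.00), and the fold change was -0.038 without shDdr2 1. Its paralogue Ccne2 differed by 0.46, and by -0.079 without shDdr2 1. Uhrf1 (Entrez 18140, chromosome 17, 56303321 to 56323486, plus strand), which brings maintenance DNA methylation to new strands, was at 99.5, 115 and 116 CPM in shDdr2 1 to 3, against 65.6, 114 and 109 CPM in control 1 to 3. Control 1 was low and the other 5 libraries lay close together (log2 fold change 0.20, SE 0.25, edgeR adjusted p = 1.00), and without control 1 the fold change was -0.0056. E2f1, the transcription factor itself, differed by 0.031 (95% interval -0.57 to 0.63) and Chaf1a, a subunit of the chromatin assembly factor, by 0.15, and these were -0.15 and -0.040 without control 1. E2f1 was also at -0.072 without shDdr2 2.

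Across libraries the 41 genes thus fell into those highest in shDdr2 1 (22 genes) and those highest elsewhere (19 genes: 13 in shDdr2 2, 4 in control 2, and 1 each in control 3 and shDdr2 3). The level in shDdr2 1 was at least 2-fold the mean of the other 5 libraries in 11 genes, led by Gins2 (2.87-fold), Prim1 (2.48-fold) and Rfc4 (2.43-fold), and it was lowest, relative to that mean, in Pole (0.794-fold), Rfc1 and Pola2. Control 1 was below the mean of the other 5 in 40 of 41 genes, at 0.534-fold in Mcm2 at the lowest, with Ccne2 (1.00-fold) as the exception. The genes highest in shDdr2 1 had shorter exonic lengths, with a median of 2096.5 bases against 3517 bases in the others.

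Exonic length also moved with shDdr2 1 over all genes. Of the 14498 genes tested, 13464 (92.9%) had an exonic length in GENCODE. Split into 8 bins by length, the shortest genes had a median log2 CPM 0.80 above the mean of the other 5 libraries in shDdr2 1, and the longest had a median of -0.77 relative to it. Spearman's rho between length and this difference was -0.49 across the 13464 genes and -0.56 across the 41, where genes share the library and are not independent. In the other libraries it ran from -0.095 (control 1) to 0.44 (shDdr2 3) across all genes. Each of these was set against a mean of 5 libraries that includes shDdr2 1, so the values are not trends of those libraries alone. With the length trend of each library removed, an alternative added after the data were seen, the members in shDdr2 1 stood 0.49 log2 units above the mean of the other 5 on average, against 0.52 before, and the spread of that difference over the 41 genes was 0.419 (SD), against 0.543 before. Over all genes the median difference was 0.0088 in the bin of 2652 to 3274 bases, so removal could move members of such length little. In the shortest member, Gins1, the difference went from 1.23 to 0.49, and in the longest, Pole, from -0.30 to 0.33. Not all members moved toward the average of the list: Gins2 went from 1.54 to 1.71 and Rfc2 from 0.80 to 1.13. The average over members therefore says little about the part of length in single genes. In the fit with the length trend removed, 40 of 41 genes had a fold change above 0. The median was 0.24 against 0.041 over all genes, and 0 members were called by edgeR, with 1 (Cdc6) at an unadjusted p under 0.05. The share of all genes under 0.05 in that fit is not given here.

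**Figure D5:**
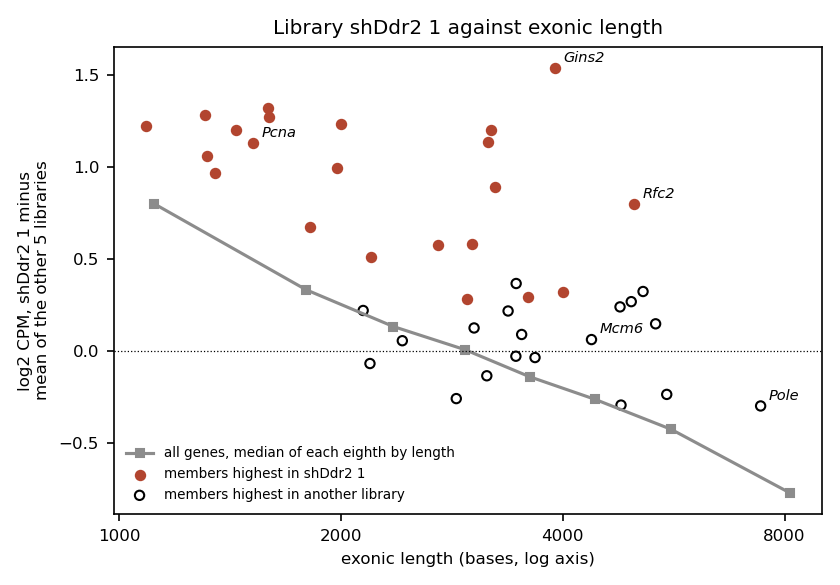
Log2 CPM in shDdr2 1 minus the mean of the other 5 libraries against exonic length (log axis) for the 41 replication genes (points), with the median of all genes in 8 length bins (line and squares). The line falls from 0.80 in the shortest to -0.77 in the longest bin, and most replication genes lie above it.

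Other genes of the pathway were taken from 3 lists of 88 genes, all in the table, and edgeR called 0 of the 88, with 0 at an unadjusted p under 0.05 in either direction. Of 35 further replication factors 31 had a fold change above 0 (median 0.21), of 31 nucleotide synthesis genes 26 (median 0.14), and of 22 E2F and G1/S genes 16 (median 0.074). Over the 88 the count was 73 with all libraries and 43 without shDdr2 1, with medians of 0.17 and -0.0020. The share of all genes above 0 in the latter fit is not given here. The E2F and G1/S genes had a median of -0.0074 without control 1. The smallest unadjusted p on the higher side belonged to Mthfd1, an enzyme that supplies folate-bound carbon units for nucleotide synthesis, which was at 74.9, 97.2 and 85.6 CPM in shDdr2 1 to 3, against 54.96, 69.9 and 76.8 CPM in control 1 to 3 (log2 fold change 0.35, SE 0.21, edgeR adjusted p = 1.00). Umps, which makes uridine monophosphate, followed at 62.8, 46.7 and 39.5 CPM in shDdr2 1 to 3, against 37.4, 37.6 and 39.9 CPM in control 1 to 3 (log2 fold change 0.37, SE 0.23, edgeR adjusted p = 1.00), with a fold change of 0.17 without shDdr2 1 and 0.14 without number 1 of both groups. E2f6, a repressor of the E2F family, was at 34.8, 30.9 and 20.6 CPM in shDdr2 1 to 3, against 25.6, 22.3 and 20.4 CPM in control 1 to 3 (log2 fold change 0.34, SE 0.26, edgeR adjusted p = 1.00), with a fold change of 0.18 without shDdr2 1. On the lower side the smallest unadjusted p belonged to Shmt2, a mitochondrial serine hydroxymethyltransferase, at 137, 158 and 141 CPM in shDdr2 1 to 3, against 134, 180.2 and 185 CPM in control 1 to 3 (log2 fold change -0.19, SE 0.20, edgeR adjusted p = 1.00), with a fold change of -0.31 without control 1 and -0.11 without control 3. Cdk6, a kinase of G1 phase, was at 20.1, 25.9 and 26.8 CPM in shDdr2 1 to 3, against 32.1, 22.3 and 29.7 CPM in control 1 to 3 (log2 fold change -0.21, SE 0.23, edgeR adjusted p = 1.00). Tfdp2, a dimer partner of E2F factors, was at 11.8, 21.2 and 26.6 CPM in shDdr2 1 to 3, against 24.3, 22.6 and 24.8 CPM in control 1 to 3 (log2 fold change -0.26, SE 0.31, edgeR adjusted p = 1.00). The fold change of Cdk6 was -0.091 without shDdr2 1 and -0.089 without control 1, and that of Tfdp2 was 0.0034 without number 1 of both groups. The groups overlapped in each of these 6 genes.

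The mitosis genes gave the closest comparison. Of 30, 29 had a fold change above 0, with a median of 0.23 and 0 edgeR calls (0 at an unadjusted p under 0.05). Without number 1 of both groups it was 19 of 30 and 0.061. Relative to its mean over the 6 libraries, the mean log2 CPM of the mitosis list was 0.14, 0.28 and -0.11 in shDdr2 1 to 3 and -0.41, 0.022 and 0.078 in control 1 to 3. The same deviations of the replication genes were 0.43, 0.16 and -0.24 in shDdr2 1 to 3 and -0.37, 0.017 and 0.0051 in control 1 to 3. Control 1 was the lowest library for both lists, but the highest was shDdr2 2 for mitosis and shDdr2 1 for replication. These deviations keep the length trend of each library, and the lists were not matched on length. The part of length in the contrast between the lists was not tested. The replication mean minus the mitosis mean was -0.33 ± 0.245 log2 units in tumours labelled shDdr2 and -0.36 ± 0.0542 in control tumours (SD, n = 3 each), so the balance between the lists differed by 0.029 between groups, less than the spread within them. It was -0.052 in shDdr2 1 and between -0.48 and -0.31 in the other 5 libraries. Of 19 cell cycle brakes, among them Cdkn1a and Trp53, 9 had a fold change above 0 and the median was -0.036, with 0 edgeR calls and 0 at an unadjusted p under 0.05. Without shDdr2 1 the median was -0.24 and 13 of the 19 were lower. Of these 13, 2 had an unadjusted edgeR p under 0.05, with 0 calls. The shares of all genes in that fit are not given here. Neither count is therefore read as particular to the brakes. Without control 3 the median was 0.035.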

How the data were processed

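RNA of 6 tumours was sequenced after poly-T selection as paired-end reads, per the labels' protocols. Per the submitters' processing notes, the tools were limma, Bowtie2 2.1.0 and RSEM 1.2.31 and the build GRCm38.p5, with no role stated. The authors deposited a count for each Entrez gene, as whole numbers that could be estimates rounded by them, for 15295 genes with a lowest count of 1. The deposited log2 values, turned back with 1 factor per library and an addition of 1, gave whole numbers, within 0.05, for 100% of values, and these equalled the deposited count in 91753 values and differed from it in 17. No source used here gives the annotation, the gene filter or the strand setting.

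Counts were filtered with filterByExpr (14498 genes left), scaled by TMM and tested with the robust quasi-likelihood method of edgeR 4.0.16 (F test, R 4.3.3), two-sided, with Benjamini-Hochberg adjustment over all genes tested and a threshold of 0.05. Alternatives used DESeq2 1.42.0, limma 3.58.1, other scalings and filters, a replicate block, and fits without single libraries or same-numbered pairs. The common biological coefficient of variation was 35.3%, and the median gene had a 95% interval of ± 0.76 around its log2 fold change. Totals were 15976000, 19522985 and 16523499 counts in shDdr2 1 to 3, and 18917186, 16144741 and 15560571 in control 1 to 3. Log2 CPM used a prior count of 2. The test was also run on simulated counts, drawn independently for each gene. They held no length trend and no outlying library, so the simulation does not cover these features of the data.

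Symbols came from a RefSeq table by Entrez number (14876 matched, 419 did not), coordinates and exonic lengths (union of basic exons) from GENCODE M21 on GRCm38, and promoters from RefSeq on GRCm38.p6. Replicate numbers come from the titles. Across genes, libraries of the same number deviated together from their group means (r of 0.299, 0.267 and 0.253), above the 0.1 set for pairing, but the labels do not say what a number stands for, and shDdr2 2 with control 3 gave 0.254. Members and lists were chosen with earlier results of these data known. All members are named by role, and values per library are given for the member of highest mean CPM and that of smallest p in each role, for Mcm2 to Mcm7, Pcna and Rrm2, and from the other pathway lists for the 3 genes of smallest p in each direction. Further members whose values are given per library (Ddr2 apart), namely Gins2, Prim2, Rfc1, Tk1 and Tyms, were added after values had been seen.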

Additional observations from a re-analysis of the deposited data

How the results depend on the processing

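With all libraries kept, 11 alternatives left the number of members called at 0 and their median log2 fold change between 0.22 and 0.31, and 0 of the 88 other pathway genes were called. DESeq2 called 40 genes of the whole table in place of 0. The replicate block gave 0 calls, 40 of 41 members above 0 and a median of 0.25, and it changed no call. Signs turned only near 0 there: Cdc45 was at -0.016 on library totals alone, and Rfc1 at 0.014, 0.015, 0.0095 and 0.021 with the replicate block, on voom weights, on the deposited log2 values and with the length trend removed. Over the 9 fits that left out a library or a same-numbered pair, the number of members above 0 ran from 19 to 41 and the median from -0.088 to 0.50, with 0 members called. In these fits 26 members changed sign, and the cause was not tested. Their log2 fold changes ran from -0.39 to 0.66 for Orc6, -0.15 to 0.18 for Cdt1, -0.088 to 0.41 for Mcm4, -0.11 to 0.21 for Mcm7, -0.21 to 0.30 for Cdc45, -0.26 to 0.81 for Gins1, -0.27 to 0.92 for Gins2, -0.15 to 0.36 for Gins3, -0.21 to 0.038 for Pola2, -0.20 to 0.76 for Prim1, -0.076 to 0.30 for Pole, -0.22 to 0.67 for Pcna, -0.18 to 0.19 for Rfc1. The others ran from -0.41 to 0.40 for Rfc2, -0.16 to 0.60 for Rfc3, -0.21 to 0.80 for Rfc4, -0.32 to 0.42 for Rfc5, -0.12 to 0.24 for Lig1, -0.13 to 0.46 for Rpa2, -0.24 to 0.60 for Tyms, -0.34 to 0.62 for Tk1, -0.15 to 0.16 for E2f1, -0.15 to 0.84 for Ccne1, -0.079 to 0.73 for Ccne2, -0.0056 to 0.33 for Uhrf1, -0.040 to 0.31 for Chaf1a. Outside the 41, they ran from -0.40 to 0.0085 for Cdk6, -0.53 to 0.0034 for Tfdp2, -0.28 to 0.71 for Ddr2. The other 15 members kept their sign in all 20 alternatives. The 95% intervals of all 41 members included 0, so neither a difference nor its absence was shown for any of them.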
